A study of Mus musculus with 6 samples.

Results

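The enzymes and transporters of glycolysis and the pentose phosphate pathway were followed in mouse HoxB8 neutrophil progenitors that expressed 1 of 2 forms of the transcription factor C/EBPα. The genes were 38 listed members: glucose carriers, the enzymes that carry glucose to pyruvate, the enzymes and carriers that decide what becomes of pyruvate and lactate, and the pentose phosphate enzymes. A gene was measured where the annotation of the array gave a probe set its symbol. This held for 32 of the 38, each with 1 probe set, out of 22206 probe sets in the table. Gpi1, Pfkfb1, Pfkfb2, Eno1, G6pdx and Tkt had no probe set named here and were not analysed.

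Total RNA of 6 samples was hybridised to Affymetrix Mouse Clariom S arrays, 1 array for each sample. The K313 group (3 arrays) expressed K313-C/EBPα, a form that the title of the series links to acute myeloid leukaemia, and the WT group (3 arrays) expressed wild-type C/EBPα. Both groups were Hoxb8 progenitors, a mouse cell model in which the homeobox factor Hoxb8 keeps myeloid progenitors immature, and both had spent 1 day in a differentiation medium with serum, β-mercaptoethanol and supernatant containing stem cell factor (SCF). The labels do not say what drives either C/EBPα form, whether a group was 1 clone or a pool, what became of the cells' own Cebpa gene, or whether the replicates were separate cultures. The p-values therefore measure the spread between these arrays, which may be technical. The values are deposited RMA levels on a log2 scale, in which 1 unit is a 2-fold difference, and every change below is K313 minus WT in those units with its standard error. A gene was called changed where the adjusted p of limma, taken over all probe sets, was under 0.05.

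Glycolysis splits glucose into pyruvate in the cytosol and yields ATP without oxygen. Its committed step is the phosphorylation of fructose 6-phosphate by phosphofructokinase, which is switched on by fructose 2,6-bisphosphate, the product of the PFK-2 enzymes. The pentose phosphate pathway branches off from glucose 6-phosphate and supplies NADPH and ribose, which neutrophils use for the oxidative burst and progenitors for making nucleotides. Mature neutrophils hold few mitochondria and are known for drawing most of their ATP from glycolysis.

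The arrays resembled each other closely. Pearson's r over all probe sets, which are not independent, was 0.9952 to 0.9963 between K313 arrays, 0.9941 to 0.9953 between WT arrays and 0.9831 to 0.9891 across the groups. The mean log2 level of 12 neutrophil progenitor markers was 13.15 to 13.29 on K313 arrays and 13.16 to 13.27 on WT arrays. Single markers moved in opposite directions, with 4 of the 12 called higher and 2 lower, beside 3.77% and 3.97% of all probe sets. The granule proteases Elane (3.29), Ctsg (1.75) and Prtn3 (0.94) and the membrane protein gene Ms4a3 (0.81) were higher in K313 progenitors on the log2 scale, and Hoxb8 (-4.64) and the stem cell antigen Cd34 (-0.93) were lower. Mpo, also a granule enzyme, gave 18.38 to 18.44 on K313 arrays and 18.36 to 18.51 on WT arrays. The secondary granule genes Ltf and Camp and the protease Mmp9, which mark mature neutrophils, were at 3.61 or below on all 6 arrays. Ngp, on the same list, read 4.24, 4.59 and 6.24 on K313 arrays and 3.30, 3.91 and 3.70 on WT arrays. Its groups did not overlap, and it was not called (limma adjusted p = 0.0752). The 7 mature neutrophil markers together averaged 5.19 to 6.46 on K313 arrays and 4.73 to 5.11 on WT arrays, with 2 called higher and 1 lower. The calcium-binding protein gene S100a8 ran from 7.37 to 10.59 on K313 arrays and from 4.24 to 5.51 on WT arrays, S100a9 was higher by 2.68, and the chemokine receptor Cxcr2 was lower (-2.08). Markers of other blood lineages differed as well. The monocyte and macrophage markers (10 probe sets) averaged 8.59 to 8.83 on K313 arrays and 7.36 to 7.74 on WT arrays, with 5 called higher and 2 lower. Basophil and mast cell markers (8) averaged 11.49 to 11.89 on K313 arrays and 12.05 to 12.27 on WT arrays, and eosinophil markers (5) averaged 8.78 to 9.30 on K313 arrays and 10.01 to 10.48 on WT arrays. Of these, 4 of the 8 and 3 of the 5 were called lower, and 1 of the 8 higher. Erythroid and megakaryocyte markers (7) averaged 6.97 to 7.25 on K313 arrays and 8.07 to 8.19 on WT arrays, with 3 called lower and 1 higher. B and T lymphocyte markers (6) averaged 4.51 to 4.68 on K313 arrays and 5.83 to 6.08 on WT arrays, with 4 called lower. Hoxb8 itself read 8.06, 8.53 and 8.42 on K313 arrays, against 12.45, 13.49 and 12.99 on WT arrays. Whether its probe set reads the introduced copy is not stated. The part of these differences in the results below was not tested, and in bulk RNA fewer cells of a type and less RNA per cell cannot be told apart.

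Promoters of 4 of the members that moved, and the one of 2 Ldha promoters that holds such matches, Ldha being a gene of the same pathway that was not called, are shown first because they carry the sequence elements for which glycolytic genes are known. They were read from the RefSeq promoter table of build GRCm38.p6, which spans 250 bases before to 50 bases after each annotated start, and are written 5′ to 3′ on the strand of the gene. Capitals mark ACGTG, 1 form of the core bound by hypoxia-inducible factors, and CCGCCC, the GC box of Sp factors, each in either orientation. Other forms of that core were not counted. Overlapping matches run together, and a CACGTG, the E-box known for MYC and USF factors, holds ACGTG on both strands and counts as 2 matches. Slc2a3 is named only, and the 2 promoters of Aldoc are counted below but not printed. Pfkfb3 has 2 annotated starts here, and which of them these cells use was not measured.
Pfkl, chr10:78009758-78010057, minus strand: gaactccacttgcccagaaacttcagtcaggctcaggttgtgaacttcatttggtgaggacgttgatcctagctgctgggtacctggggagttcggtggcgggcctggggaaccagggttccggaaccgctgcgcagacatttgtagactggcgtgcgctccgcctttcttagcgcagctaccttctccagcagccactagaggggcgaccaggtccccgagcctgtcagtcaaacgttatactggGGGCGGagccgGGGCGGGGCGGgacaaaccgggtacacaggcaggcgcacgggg
Pfkp, chr13:6648722-6649021, minus strand: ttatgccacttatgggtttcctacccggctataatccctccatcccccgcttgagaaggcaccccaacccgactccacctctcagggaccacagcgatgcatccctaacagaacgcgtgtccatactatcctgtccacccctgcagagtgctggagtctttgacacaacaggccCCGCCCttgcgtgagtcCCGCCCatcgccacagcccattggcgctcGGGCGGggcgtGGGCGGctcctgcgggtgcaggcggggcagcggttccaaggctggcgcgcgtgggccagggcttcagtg
Pfkfb3 start 1, chr2:11502041-11502340, minus strand: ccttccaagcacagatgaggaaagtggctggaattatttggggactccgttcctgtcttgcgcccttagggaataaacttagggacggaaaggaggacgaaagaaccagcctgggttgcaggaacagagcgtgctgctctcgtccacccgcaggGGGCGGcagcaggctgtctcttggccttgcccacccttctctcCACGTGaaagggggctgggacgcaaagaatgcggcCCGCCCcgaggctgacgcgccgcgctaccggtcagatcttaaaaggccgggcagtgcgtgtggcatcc
Pfkfb3 start 2, chr2:11553880-11554179, minus strand: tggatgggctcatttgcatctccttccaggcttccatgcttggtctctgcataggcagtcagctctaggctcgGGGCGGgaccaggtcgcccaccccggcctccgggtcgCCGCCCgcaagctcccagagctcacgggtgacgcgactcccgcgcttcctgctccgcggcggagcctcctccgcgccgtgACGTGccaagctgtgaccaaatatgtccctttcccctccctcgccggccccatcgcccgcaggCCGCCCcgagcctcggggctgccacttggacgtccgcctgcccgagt
Ldha, chr7:46845554-46845853, plus strand: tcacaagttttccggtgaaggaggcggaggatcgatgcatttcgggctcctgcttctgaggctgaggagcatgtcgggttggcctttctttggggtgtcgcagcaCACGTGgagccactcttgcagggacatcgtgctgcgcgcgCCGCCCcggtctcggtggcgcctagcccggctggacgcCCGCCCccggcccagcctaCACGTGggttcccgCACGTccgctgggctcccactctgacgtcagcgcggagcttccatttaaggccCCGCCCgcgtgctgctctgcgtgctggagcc
Slc16a1, chr3:104638414-104638713, plus strand: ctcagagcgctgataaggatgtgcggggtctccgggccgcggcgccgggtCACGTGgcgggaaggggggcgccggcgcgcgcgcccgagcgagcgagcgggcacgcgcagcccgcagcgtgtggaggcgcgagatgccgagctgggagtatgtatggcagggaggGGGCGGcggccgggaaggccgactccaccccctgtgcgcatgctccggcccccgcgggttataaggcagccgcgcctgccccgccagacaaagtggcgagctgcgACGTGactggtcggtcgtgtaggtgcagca

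The printed Ldha promoter held 5 ACGTG matches and 3 CCGCCC matches, and the promoter at its other annotated start held 0 of each. The Aldoc promoters held 1 of each at one start and 0 of each at the other. The Slc16a1 promoter held 3 and 1, and the Pfkfb3 promoters held 2 and 2 at the first start and 1 and 3 at the second. The Pfkl promoter held 0 ACGTG matches and 3 GC boxes, and the Pfkp promoter 0 and 4. ACGTG was present in 23 of the 57 promoters that the table gives for 37 of the 38 members (40.4%) and in 19.6% of all 32851 promoters in the table. Genes with several starts count more than once among the 57, and some of their windows overlap. By gene, 19 of the 37 held ACGTG in at least 1 promoter. CCGCCC was present in 32 of the 57 (56.1%) and in 35.7% of all promoters, and CACGTG in 6 of the 57 (10.5%) and in 7.15%. The palindromic core of C/EBP sites, TTGCNNCAA, was found in 1 of the 57 member promoters and in 2.08% of all promoters. Such matches are a description of these letters in a short window, not of binding.

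Of the 32 measured members, 5 were called higher in K313 progenitors (15.6%), 1 was called lower (3.12%) and 26 were not called. Over all probe sets, 3.77% were called higher and 3.97% lower. The 5 that rose were the phosphofructokinases Pfkp and Pfkl, the PFK-2 enzyme Pfkfb3, the aldolase Aldoc and the lactate and pyruvate carrier Slc16a1. The glucose carrier Slc2a3 fell. All K313 arrays lay above all WT arrays in 8 members (25.0%), against 11% of all probe sets, and below them in 1 member (3.12%), against 10.9%; the groups overlapped in 23. The members were chosen with earlier results of these data known, so these shares describe the list.

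**Figure D1:**
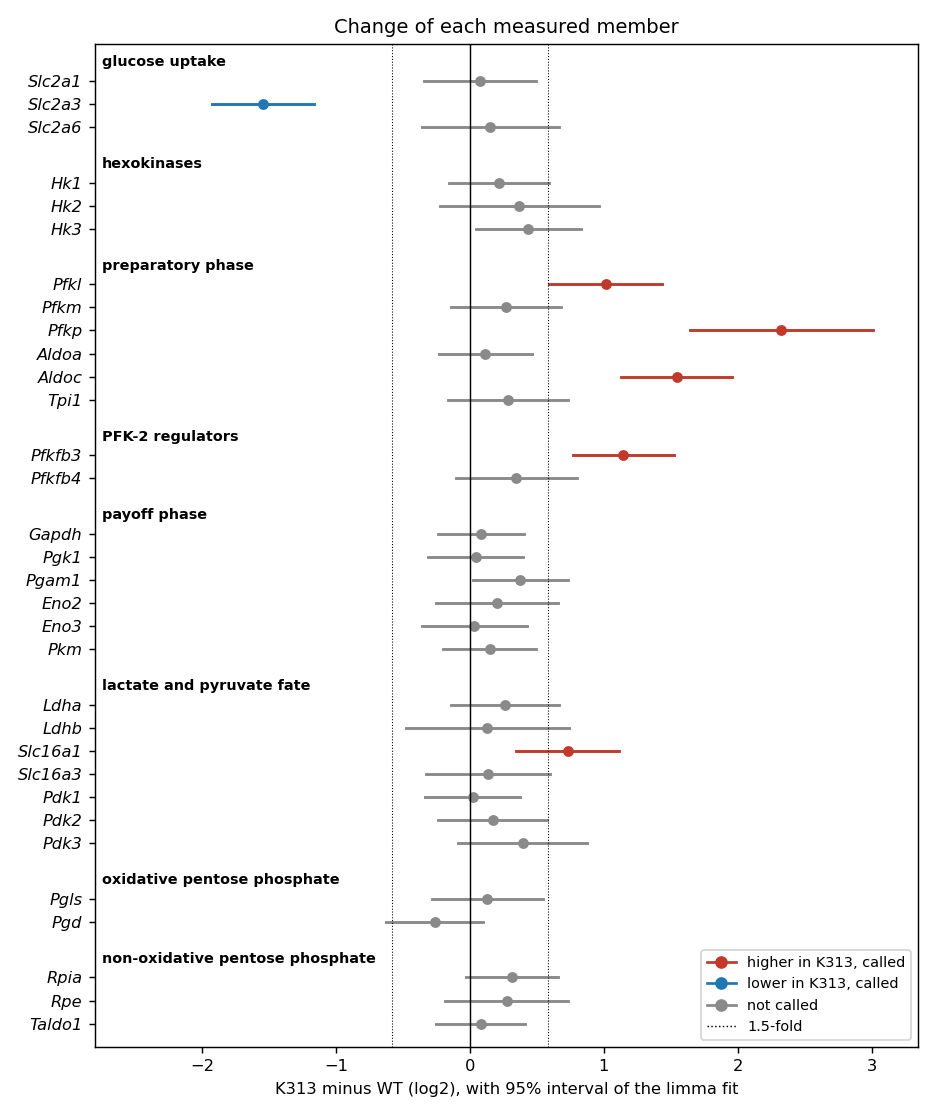
Change of the 32 measured members by role, as K313 minus WT on the log2 scale, with the 95% interval of the limma fit. Red points are members called higher in K313, the blue point is Slc2a3, called lower, grey points were not called, and dotted lines mark a 1.5-fold change.

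At the point of entry, Slc2a3 and Slc2a1 differed in what they did. Slc2a3 encodes GLUT3, a glucose carrier of high affinity known from neurons and blood cells. Its levels were 9.62, 9.55 and 9.68 on K313 arrays, against 11.40, 10.87 and 11.22 on WT arrays. The groups were more than 1 unit apart, and the K313 arrays lay within 0.13 of each other. The change was -1.55 ± 0.17, a level 2.92-fold lower in K313 progenitors (limma adjusted p = 0.000147). This was the member that was called in all 14 alternative settings, with a highest adjusted p of 0.0403.

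Slc2a1 encodes GLUT1, the widely expressed glucose carrier. It read 13.24, 13.38 and 13.59 on K313 arrays and 13.63, 13.02 and 13.33 on WT arrays, so the WT arrays spanned the K313 values. The difference was 0.08 ± 0.19 with a 95% interval from -0.34 to 0.49, and it was not called (limma adjusted p = 0.901). Slc2a6, which encodes GLUT6, a carrier known from spleen and leukocytes, lay between 5.49 and 5.68 on K313 arrays and between 4.87 and 5.80 on WT arrays. These values lay close to 5, the level taken here as near background. Within each array, the difference between Slc2a1 and Slc2a3 was 1.62 units larger in K313 progenitors than in WT progenitors.

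None of the 3 hexokinases, which trap glucose as glucose 6-phosphate, was called by limma, and 1 of them, Hk3, had an unadjusted p under 0.05. Hk3, the isozyme known from myeloid cells, read 12.19, 11.81 and 12.01 on K313 arrays and 11.33, 11.58 and 11.79 on WT arrays. The arrays of the groups did not overlap, by a margin of 0.02 units, and the difference of 0.44 ± 0.18 missed the threshold (limma adjusted p = 0.217). Hk1, the housekeeping form bound to mitochondria, averaged 13.76 ± 0.12 in K313 progenitors and 13.55 ± 0.23 in WT progenitors (SD, n = 3 each). Hk2, the form known to answer to insulin and hypoxia, averaged 10.71 ± 0.32 in K313 progenitors and 10.34 ± 0.56 in WT progenitors (SD, n = 3 each). Both pairs of ranges overlapped.

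The phosphofructokinase step held the largest rise among the members. Phosphofructokinase works as a tetramer of liver (Pfkl), muscle (Pfkm) and platelet (Pfkp) subunits, which differ in how ATP, citrate and fructose 2,6-bisphosphate act on them. Pfkp read 14.24, 14.23 and 14.18 on K313 arrays and 11.99, 11.06 and 12.62 on WT arrays. The K313 arrays lay within 0.06 of each other, whereas the WT arrays spread over 1.56, and the groups did not overlap. The change was 2.33 ± 0.31, a 5.02-fold higher level in K313 progenitors with a 95% interval from 3.12-fold to 8.06-fold (limma adjusted p = 0.000569). Its size followed the WT arrays, at 1.91 without WT replicate 2 and 2.69 without WT replicate 3.

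Pfkl read 10.94, 11.49 and 11.47 on K313 arrays and 10.37, 10.09 and 10.40 on WT arrays. Every K313 array lay above every WT array, and the change was 1.01 ± 0.19, or 2.02-fold (limma adjusted p = 0.00615). Pfkm was not called: its arrays ran from 9.29 to 9.76 in K313 progenitors and from 9.11 to 9.54 in WT progenitors, with a difference of 0.27 ± 0.19 (limma adjusted p = 0.533). The balance of the subunits therefore differed on the arrays. The difference between Pfkp and Pfkl was 1.31 units larger in K313 progenitors, and that between Pfkm and Pfkl changed by -0.74, both without overlap of the groups.

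Of the PFK-2 enzymes, which make and remove fructose 2,6-bisphosphate, Pfkfb3 and Pfkfb4 were measured. Pfkfb3, the form whose kinase activity far exceeds its phosphatase activity, read 12.72, 12.55 and 12.38 on K313 arrays and 11.58, 11.17 and 11.46 on WT arrays. The groups were separated by 0.80 units, and the change was 1.15 ± 0.17, or 2.21-fold (limma adjusted p = 0.00133). Pfkfb4 read 6.88, 6.84 and 7.28 on K313 arrays and 7.05, 6.46 and 6.45 on WT arrays, and its groups overlapped (0.35 ± 0.21, limma adjusted p = 0.446).

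The aldolases cut fructose 1,6-bisphosphate into 2 trioses. Aldoc, the aldolase named for the brain, read 5.74, 5.41 and 5.23 on K313 arrays and 4.15, 3.69 and 3.91 on WT arrays. The groups did not overlap, and the change was 1.54 ± 0.19 (limma adjusted p = 0.000282). The WT mean lay below 5, the level taken here as near background, so the size of the change is uncertain. Aldoa, the widely expressed aldolase, averaged 16.13 ± 0.14 in K313 progenitors and 16.02 ± 0.12 in WT progenitors (SD, n = 3 each) and was not called (0.11 ± 0.16, limma adjusted p = 0.802). Tpi1, the isomerase that interconverts the trioses, differed by 0.29 ± 0.20 with overlapping groups.

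**Figure D2:**
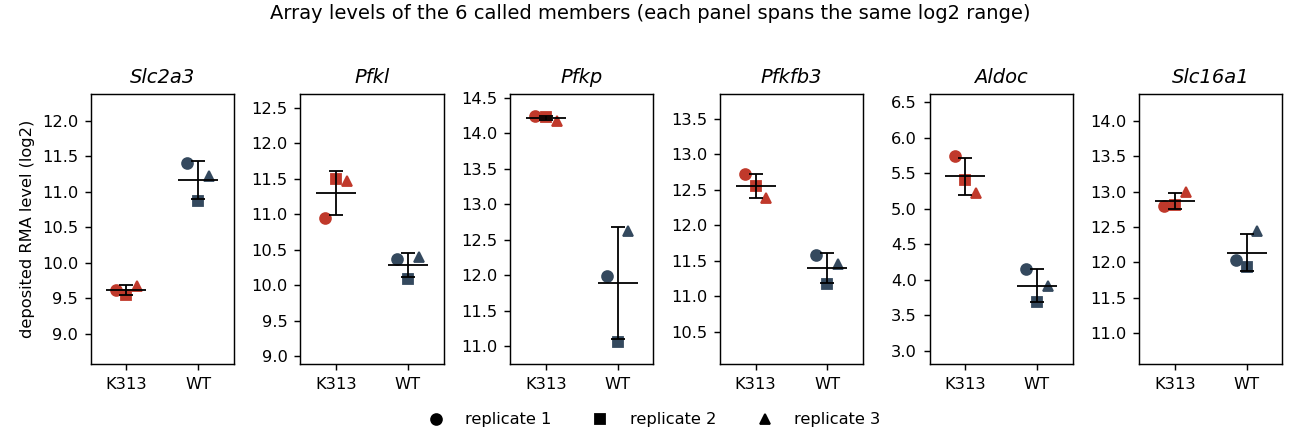
Deposited log2 RMA levels of the 6 called members on each array, K313 on the left and WT on the right of each panel, with the mean (long bar) and SD (whiskers) of 3 arrays; symbols give the replicate number. The groups do not overlap in any of the 6 panels, and the WT arrays of Pfkp are spread from 11.06 to 12.62.

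In the payoff phase, in which the trioses become pyruvate and ATP is made, 0 of 6 measured members were called by limma. 1 of the 6, Pgam1, had an unadjusted p under 0.05. Gapdh, the dehydrogenase that forms 1,3-bisphosphoglycerate, read 17.38, 17.40 and 17.30 on K313 arrays and 17.33, 17.23 and 17.28 on WT arrays. Its groups overlapped at the top of the signal range of the arrays, where the highest deposited value was 18.59, and its 95% interval ran from -0.24 to 0.40. Pgk1, the first ATP-forming kinase of glycolysis, averaged 14.93 ± 0.14 in K313 progenitors and 14.89 ± 0.15 in WT progenitors. Pkm, a widely expressed pyruvate kinase, averaged 15.95 ± 0.12 in K313 progenitors and 15.80 ± 0.15 in WT progenitors (SD, n = 3 each).

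Pgam1, a phosphoglycerate mutase, read 14.46, 14.68 and 14.66 on K313 arrays and 14.32, 14.02 and 14.33 on WT arrays. Its arrays did not overlap, and its difference of 0.38 ± 0.16 missed the threshold (limma adjusted p = 0.248). The enolases Eno2, known from neurons, and Eno3, known from muscle, had group means of at most 5, taken here as near background. Eno2 ran from 2.97 to 3.54 on K313 arrays and from 2.66 to 3.24 on WT arrays, and Eno3 from 4.85 to 4.99 on K313 arrays and from 4.67 to 5.20 on WT arrays. The deposited Pkm value sums the splice forms that its probe set reads, and PKM1 and PKM2 were not analysed separately.

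Among the 7 measured members that govern lactate and pyruvate, Slc16a1 was the only one called. It encodes MCT1, a carrier that moves lactate and pyruvate with a proton in either direction. It read 12.80, 12.81 and 13 on K313 arrays and 12.04, 11.94 and 12.44 on WT arrays. The groups did not overlap, and the change was 0.73 ± 0.18, or 1.66-fold (limma adjusted p = 0.0261). The call was kept without WT replicate 3 and lost without any 1 of the other 5, with adjusted p-values up to 0.106.

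Slc16a3, which encodes the lactate exporter MCT4, read 9.13, 8.68 and 9.51 on K313 arrays and 9.04, 8.80 and 9.07 on WT arrays, and its groups overlapped (0.14 ± 0.21, limma adjusted p = 0.824). Ldha, the lactate dehydrogenase subunit known for turning pyruvate into lactate, averaged 16.26 ± 0.21 in K313 progenitors and 16.00 ± 0.25 in WT progenitors (SD, n = 3 each; limma adjusted p = 0.533). Ldhb, the heart-type subunit, lay between 3.30 and 4.43 on K313 arrays and between 3.37 and 4.01 on WT arrays, near background. Pyruvate dehydrogenase kinases close the entry of pyruvate into the citric acid cycle, and none of the 3 measured was called. Pdk1, known as a hypoxia target, differed by 0.02 ± 0.16, Pdk2, near background, by 0.17 ± 0.18, and Pdk3 by 0.39 ± 0.22.

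The pentose phosphate enzymes showed 0 calls by limma among 5 measured members, and none of the 5 had an unadjusted p under 0.05. Of the oxidative branch, which makes NADPH, Pgd (6-phosphogluconate dehydrogenase) was one of the 2 members of all 32 with a negative change, the other being Slc2a3. Pgd read 14.51, 14.35 and 14.50 on K313 arrays and 14.88, 14.48 and 14.79 on WT arrays, with ranges that overlapped slightly, and its difference was -0.26 ± 0.16 (limma adjusted p = 0.476). Pgls, the lactonase before it, differed by 0.13 ± 0.19. Of the non-oxidative branch, which makes ribose phosphate and returns carbon to glycolysis, Rpia (ribose 5-phosphate isomerase) read 9.58, 9.31 and 9.29 on K313 arrays and 9.02, 9.16 and 9.05 on WT arrays. Its groups did not overlap, and the difference of 0.32 ± 0.16 missed the threshold (limma adjusted p = 0.333). Rpe, the epimerase, and Taldo1, transaldolase, differed by 0.27 ± 0.21 and 0.08 ± 0.15.

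The members that were not called were not all measured closely enough to exclude a moderate change. The 95% interval lay inside 1.5-fold in either direction for 10 of the 26: Slc2a1, Aldoa, Gapdh, Pgk1, Eno3, Pkm, Pdk1, Pdk2, Pgls and Taldo1. For the other 16 it reached past 1.5-fold on at least 1 side. Of the 10, Eno3 and Pdk2 lay near background, where a narrow interval says little about the transcript.

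Most members leaned upwards by amounts below what was called. The change was positive in 30 of the 32, with a median of 0.21. Over all probe sets the median was 0.017, and 52.2% of all probe sets and 47.4% of the probe sets with a mean level above 10 had a positive change. This depended in part on WT replicate 2. That array was the lowest of all 6 arrays in 19 of the 32 members (59.4%) and in 19.9% of all probe sets, and the members deviated on it by a median of -0.32 from their mean over the 6 arrays. Without it, 25 of the 32 members were positive, with a median of 0.11. In that setting 52.4% of all probe sets and 43.6% of those with a mean above 10 were positive. With the arrays shifted to a common median, which moved the median change of all probe sets to -0.06, 26 members were positive and their median was 0.13. The shares positive were then 39.7% of all probe sets and 36.8% of those with a mean above 10. WT replicate 3 lay nearer to the K313 arrays than the other WT arrays did for Pfkp and Slc16a1. Without it, the same numbers of members were called, 5 higher and 1 lower, beside 3.42% and 3.05% of all probe sets.

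**Figure D3:**
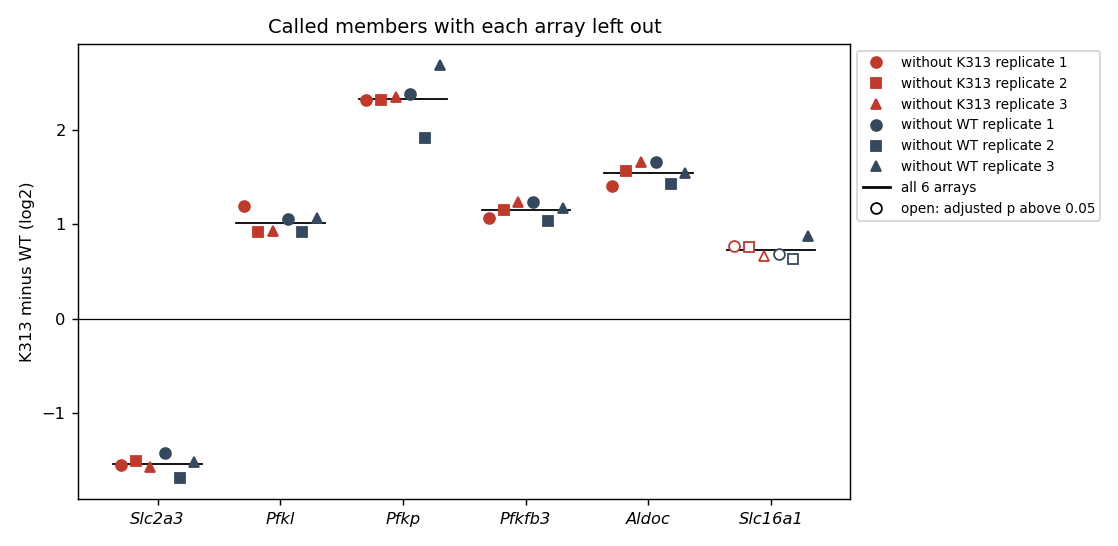
Log2 change, K313 minus WT, of the 6 called members when each array is left out in turn; the black bar is the change with all 6 arrays, filled symbols were called and open symbols were not. Slc2a3, Pfkl, Pfkp, Pfkfb3 and Aldoc were called in all 6 such fits, whereas Slc16a1 was called in the fit without WT replicate 3 alone.

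Members of a family were compared within each array, where a shift of the whole array cancels. Of 17 pairs listed, 12 had both members measured. The groups did not overlap in 6 of the 12. Of single probe sets, 11% had all K313 arrays above the WT arrays and 10.9% below. The share among pairs of other genes was not computed. The within-array difference changed by 1.62 ± 0.11 for Slc2a1 minus Slc2a3, by 1.31 ± 0.50 for Pfkp minus Pfkl, by -0.74 ± 0.07 for Pfkm minus Pfkl, by 0.80 ± 0.33 for Pfkfb3 minus Pfkfb4, by 1.43 ± 0.29 for Aldoc minus Aldoa and by -0.59 ± 0.27 for Slc16a3 minus Slc16a1 (pooled SD, n = 3 each). Each of these 6 pairs holds at least 1 called member. The Aldoc values of WT progenitors lay near background, so the size of that pair's change is uncertain. A two-sided exact permutation test over the arrays gave p = 0.1 for each, the smallest that 3 arrays against 3 can give. The 3 hexokinase pairs, Ldhb minus Ldha and the 2 pairs of Pdk genes overlapped between the groups.

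**Figure D4:**
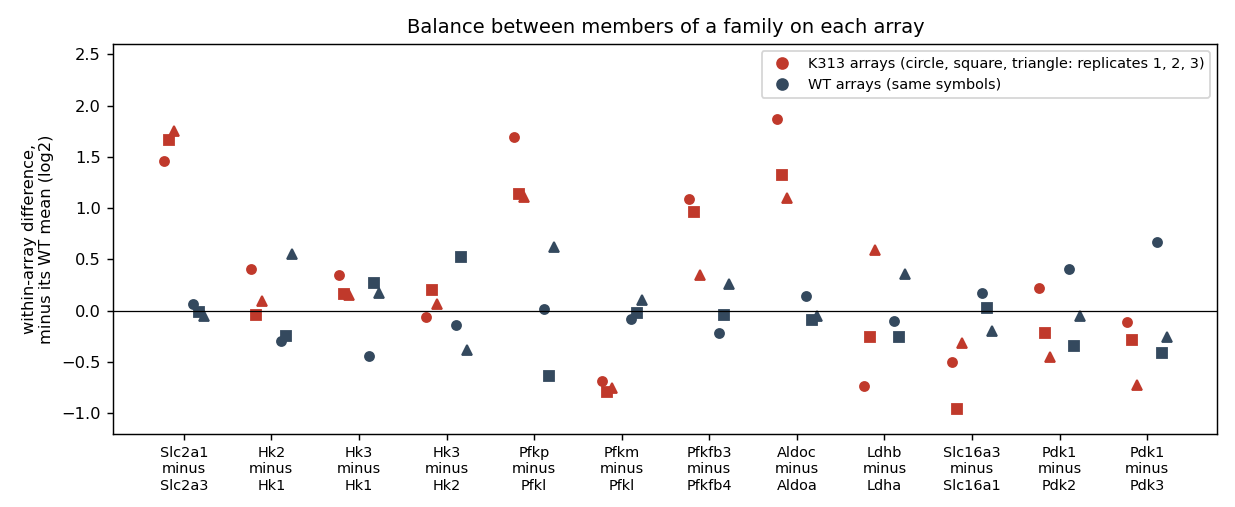
Within-array log2 difference between 2 members of a family, minus its mean over the WT arrays; red symbols are K313 arrays, dark symbols are WT arrays, and the shape gives the replicate number. The groups are apart for the glucose carrier, phosphofructokinase, PFK-2, aldolase and lactate carrier pairs and overlap for the hexokinase, lactate dehydrogenase and Pdk pairs.

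Genes around the pathway were read from 9 lists, with the same limma fit and the adjusted p over all probe sets. Their median changes ran from -0.08 for pyruvate entry to 0.30 for the hexosamine and serine branches, beside 0.017 for all probe sets. Of all 22206 probe sets, 3.77% were called higher and 3.97% lower. At an unadjusted limma p under 0.05, 1953 of the 22206 were higher and 2007 lower. Glycogen metabolism, which stores and releases glucose 6-phosphate, had 5 of 19 probe sets called higher (26.3%) and 0 called lower. At an unadjusted p under 0.05, 6 were higher and 3 lower, and the median change of the list was 0.13. The 3 lower were Gyg (-0.41 ± 0.15), Ppp1r3b (-0.59 ± 0.23) and Phka2 (-0.45 ± 0.18), none of them called. Pygl, the liver glycogen phosphorylase, read 13.39, 13.02 and 13.35 on K313 arrays and 11.39, 11.02 and 11.69 on WT arrays, a change of 1.89 ± 0.20 (limma adjusted p = 9.21e-05). Gys1, the glycogen synthase of muscle and most other tissues, read 12.83, 12.81 and 13.14 on K313 arrays and 11.28, 11.52 and 11.80 on WT arrays, a change of 1.39 ± 0.18 (limma adjusted p = 0.000488). Pygl, an enzyme of breakdown, and Gys1, an enzyme of synthesis, were therefore both higher in K313 progenitors. The branching enzyme Gbe1 (0.88 ± 0.20), the phosphoglucomutase Pgm1 (0.72 ± 0.17) and the UDP-glucose pyrophosphorylase Ugp2 (0.72 ± 0.18) completed the 5. The adjusted p of these 3 ran up to 0.0335 in limma. The Ugp2 call was lost in 5 of the 6 leave-one-out fits, and the Gbe1 and Pgm1 calls in 3 each. With ordinary variances in place of limma's shrunken ones, the list had 0 calls. Pygl and Gys1 were called in all 6 leave-one-out fits, and the list had 2 to 4 calls in each of those fits.

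Among other sugar transporters and isozymes, 2 of 21 probe sets were called higher (9.52%) and 0 lower, with 1 lower at an unadjusted p under 0.05. Slc16a7, which encodes MCT2, a pyruvate and lactate carrier of high affinity, read 7.81, 7.17 and 6.81 on K313 arrays and 3.43, 2.84 and 3.14 on WT arrays. The groups were over 3 units apart with the WT arrays near background, and the change was 4.13 ± 0.25 (limma adjusted p = 2.17e-06), kept in all 14 alternative settings. Adpgk, the ADP-dependent glucokinase, rose by 0.90 ± 0.22 (limma adjusted p = 0.0253). Its call was lost in 4 of the 6 leave-one-out fits. Of the other pentose phosphate and ribose genes, 1 of 9 was called higher (11.1%) and 0 lower, with 1 lower at an unadjusted p under 0.05. The called gene was the ribokinase Rbks (0.81 ± 0.17, limma adjusted p = 0.0111). The Rbks call was lost without K313 replicate 3.

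Where pyruvate enters mitochondria, 0 of 11 probe sets were called by limma, and 1 of them was lower at an unadjusted p under 0.05; the measured genes include the carrier Mpc1, pyruvate dehydrogenase subunits, pyruvate carboxylase and citrate synthase. Gluconeogenesis and the shuttles that carry cytosolic reducing power had 1 of 14 called higher (7.14%) and 0 lower. At an unadjusted p under 0.05, 4 were higher and 0 lower. The called gene was Got1, the cytosolic aspartate aminotransferase of the malate-aspartate shuttle. It read 10.91, 11.43 and 11.01 on K313 arrays and 10.15, 9.38 and 9.80 on WT arrays, a change of 1.34 ± 0.22 without overlap (limma adjusted p = 0.00248).

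Of 22 probe sets of regulators of glycolytic genes, 3 were called lower (13.6%) and 0 higher by limma. At an unadjusted p under 0.05, 2 were higher. Txnip and Arrdc4 are arrestin family members known to be induced by glucose through MondoA and ChREBP and to curb glucose uptake. Arrdc4 read 7.99, 8.20 and 8.35 on K313 arrays and 9.03, 8.96 and 9.11 on WT arrays (-0.85 ± 0.16, limma adjusted p = 0.00587). Txnip read 13.04, 12.61 and 12.73 on K313 arrays and 13.33, 13.65 and 13.51 on WT arrays (-0.70 ± 0.17, limma adjusted p = 0.0292). Both were without overlap, but the Txnip call was lost in 4 of the 6 leave-one-out fits. Prkab1, a subunit of the energy sensor AMPK, fell by 0.59 on the log2 scale (limma adjusted p = 0.0469), a call lost in 5 of the 6. Hif1a (0.15 ± 0.19) and Myc (0.16 ± 0.14), which encode factors known to act on glycolytic genes, were not called. Myc read 16.79 to 16.86 on K313 arrays and 16.65 to 16.71 on WT arrays, without overlap, whereas the groups overlapped for Hif1a.

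Hypoxia responsive genes outside glycolysis had 1 of 24 probe sets called higher and 1 lower (4.17% each). These shares were near the 3.77% and 3.97% of all probe sets. At an unadjusted p under 0.05, 6 were higher and 1 lower. Car12, a carbonic anhydrase of the cell surface, read 9.05, 8.84 and 8.80 on K313 arrays and 7.11, 7.13 and 7.35 on WT arrays (1.70 ± 0.16, limma adjusted p = 3.64e-05). Ddit4, an inhibitor of mTORC1 signalling, read 5.41, 6.07 and 5.54 on K313 arrays and 6.58, 6.26 and 7.00 on WT arrays (-0.94 ± 0.23, limma adjusted p = 0.0283), a call lost in 4 of the 6 leave-one-out fits. These 2 genes moved in opposite directions.

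**Figure D5:**
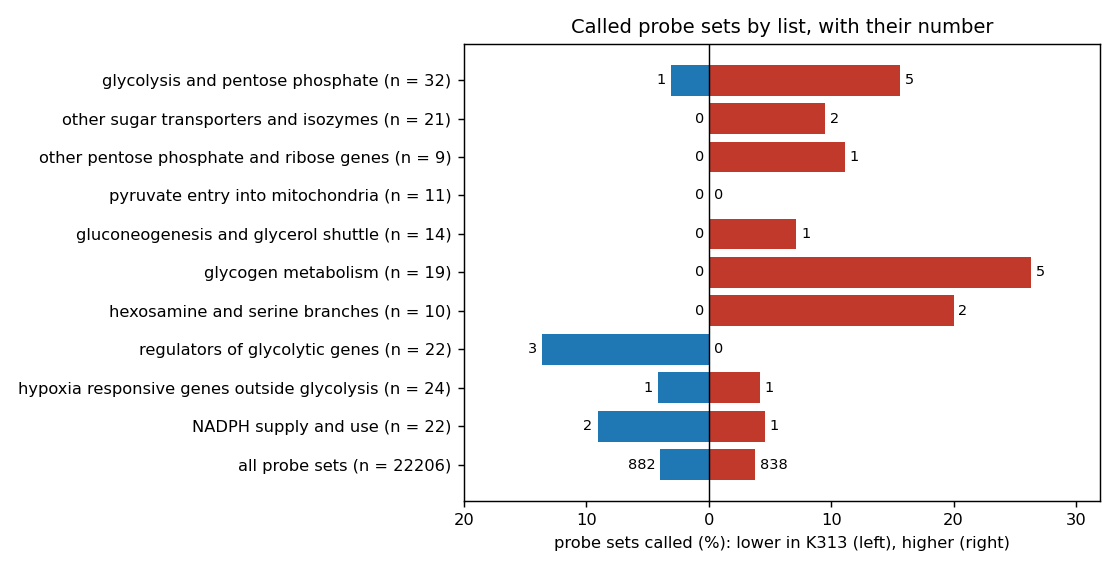
Share of probe sets called lower in K313 (left, blue) and higher in K313 (right, red) for the measured glycolysis and pentose phosphate members, for 9 lists around the pathway and for all probe sets, with the number called beside each bar. The members stand at 15.6% higher and 3.12% lower, and all probe sets at 3.77% and 3.97%; the lists were chosen with earlier results known and no list was tested.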

How the data were processed

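The deposited values are log2 expression levels per probe set from Affymetrix Mouse Clariom S arrays, made by the authors with RMA and the Transcriptome Analysis Console, per the submitters' processing notes; versions and the build of the array design are not given in the sources used here. The values run from 2.21 to 18.59, with array medians of 5.01 to 5.13. No detection calls were used, and a group mean of at most 5 was taken as near background; this held for both groups in 4 members and for WT alone in 1. Of 22206 probe sets, 19572 had 1 gene symbol, 0 had several and 2634 had none. The number of arrays limits the precision, and the median standard error of a change was 0.18.

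K313 was compared with WT by limma 3.58.1 in R 4.3.3, with lmFit on the group alone and eBayes. The test was two-sided, p-values were adjusted by Benjamini-Hochberg over all 22206 probe sets, and the threshold was 0.05. Every adjusted p comes from this fit. The fit was also run on simulated arrays of 22206 probe sets. In these, 50 were shifted by each of 0.5, 1, 2 and 3 log2 units. The fit recovered 8%, 80%, 100% and 100% of them, and 12 of its 156 calls were false. The real arrays gave 1720 calls, far more than the simulated ones. The adjusted p depends on how many probe sets change, so these shares are not recovery rates for the real arrays. The members, the 9 lists (158 genes) and the markers were chosen with earlier results of these data known. All members were eligible to be named, and from each list every called gene up to 6. Hif1a and Myc, outside this rule, are named for their known role, and the markers, Hoxb8 included, as a check of the labels. Alternatives were quantile normalization, arrays set to a common median, a low-signal filter on the bottom 30%, a robust prior with a trend on intensity, ordinary variances, array weights, probe sets with 1 symbol alone, a replicate block, a minimum change of 1.5-fold and leaving out each array. The labels name no batch.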

Additional observations from a re-analysis of the deposited data

How the results depend on the processing

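The 5 higher and 1 lower members were called under each alternative except ordinary variances without shrinkage and the leave-one-out fits. With ordinary variances, 496 of all probe sets were called, against 1720 with limma's shrunken variances. In that setting 0 members were called higher, and Slc2a3 was still called lower. At an unadjusted p under 0.05 with ordinary variances, 7 members were higher and 1 lower. The count over all probe sets at that threshold is not given here. Leaving out each array gave 1228 to 1465 calls over all probe sets, 4 to 5 members higher and 1 lower, and a median member change of 0.11 to 0.28. The labels give both groups replicate numbers 1 to 3, but same-numbered arrays did not deviate together (correlations of -0.06, 0.03 and -0.06). With the replicate number as a block, 1546 probe sets were called, with 5 members higher and 1 lower. No uncalled member became called under any alternative, and 8 of the 26 changed sign under at least 1. With arrays at a common median, Pgk1 was at -0.033, Eno3 at -0.043 and Pdk1 at -0.057, and with quantile normalization Eno3 was at -0.027. Over the leave-one-out fits, the changes ran from -0.077 to 0.23 for Slc2a1, -0.14 to 0.33 for Slc2a6, -0.022 to 0.13 for Pgk1, -0.067 to 0.20 for Eno3, -0.13 to 0.44 for Ldhb, -0.065 to 0.35 for Slc16a3, -0.06 to 0.11 for Pdk1 and -0.06 to 0.25 for Pgls. The cause was not tested. Low signal limits what can be said of Aldoc in WT progenitors and of Eno2, Eno3, Ldhb and Pdk2 in both groups.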

Other observations

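NADPH is the main product of the oxidative pentose phosphate branch. The list of its other sources and users had 1 of 22 probe sets called higher (4.55%) and 2 called lower (9.09%) in K313 progenitors. Over all probe sets, the shares were 3.77% and 3.97%. Nqo1, a quinone reductase that spends NADPH, read 5.69, 6.44 and 5.63 on K313 arrays and 10.00, 9.27 and 8.49 on WT arrays, a change of -3.33 ± 0.34 (limma adjusted p = 7.18e-05). Srxn1, the sulfiredoxin that repairs peroxiredoxins, read 5.46, 5.59 and 6.26 on K313 arrays and 7.00, 6.62 and 6.83 on WT arrays (-1.05 ± 0.22, limma adjusted p = 0.0118), a call lost in 2 of the 6 leave-one-out fits, those without K313 replicate 1 and without K313 replicate 2. The arrays of the groups did not overlap in either gene. Cybb, the catalytic subunit of the phagocyte NADPH oxidase, read 5.01, 5.73 and 6.31 on K313 arrays and 4.39, 5.02 and 4.05 on WT arrays. It was called higher (1.20 ± 0.32, limma adjusted p = 0.0450) although its groups overlapped by 1 array, and the call was lost in 4 of the 6 leave-one-out fits. Its WT mean of 4.49 lay near background, so the size of its change is uncertain.

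The hexosamine and serine branches leave glycolysis at fructose 6-phosphate and at 3-phosphoglycerate. They had 2 of 10 probe sets called higher (20%) and 0 called lower, beside 3.77% and 3.97% of all probe sets. At an unadjusted p under 0.05, 3 were higher and 1 lower. Uap1, which makes UDP-N-acetylglucosamine, rose by 0.86 ± 0.21 (limma adjusted p = 0.0326), and Shmt1, the cytosolic serine hydroxymethyltransferase, by 0.67 ± 0.18 (limma adjusted p = 0.0444). When each array was left out in turn, the list had 0 or 1 calls.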
